A study of Mus musculus with 6 samples.

Results

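White adipocyte genes were read in hind limb skeletal muscle of mice deficient in the laminin alpha 2 chain and of wild type mice. The genes are 8 markers of adipocyte identity, Adipoq, Lep, Retn, Cfd, Plin1, Fabp4, Pparg and Cebpa, chosen by name. Every probe set annotated to 1 of these symbols alone was taken, which gave 9 probe sets for 6 genes out of 18193 genes with a named probe set. Cfd and Plin1 had no probe set named in the annotation used here and were not analysed. All 6 measured genes passed the filter on dim probe sets, a mean signal of at least 15.

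The study holds 3 biological replicates of laminin alpha 2 chain deficient mice and 3 of wild type mice, all 4 weeks old. Each replicate was read on 1 Affymetrix array of its own, and the sample titles do not say whether it is 1 mouse. Laminin alpha 2 is the chain of the basement membrane laminin that anchors muscle fibres. The allele, the strain and the sex of the mice are not given in the sources used here. All hind limb skeletal muscle was taken, so RNA of fat between and around the muscles can be part of every library.

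White adipocytes store triglyceride in a single large droplet and secrete hormones. Pparg, a nuclear receptor, and Cebpa, a bZIP transcription factor, switch on each other and the genes of the mature cell. Those genes include the hormones adiponectin (Adipoq), leptin (Lep) and, in mice, resistin (Retn), and the fatty acid carrier Fabp4. In skeletal muscle, adipocytes lie between the fibres and arise from fibro-adipogenic progenitors.

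The start regions of 3 of the genes are shown because they carry letters that the factors of this network, or the basal transcription machinery, are known to read. The sequences are from RefSeq on GRCm38.p6 and run from 250 bases before to 50 bases after an annotated start, 5′ to 3′ on the gene's strand, which is the plus strand for all 3. The windows are chr6:29059971-29060270 for Lep, chr7:35119043-35119342 for Cebpa and chr6:115362099-115362398 for 1 of 3 annotated starts of Pparg. Capitals mark matches to the motifs searched.
Lep: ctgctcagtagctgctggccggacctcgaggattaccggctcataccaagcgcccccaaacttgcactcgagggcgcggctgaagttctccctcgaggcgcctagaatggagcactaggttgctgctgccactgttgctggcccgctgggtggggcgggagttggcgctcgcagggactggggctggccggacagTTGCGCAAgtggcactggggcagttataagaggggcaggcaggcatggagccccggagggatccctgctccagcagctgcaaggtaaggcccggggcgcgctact
Cebpa: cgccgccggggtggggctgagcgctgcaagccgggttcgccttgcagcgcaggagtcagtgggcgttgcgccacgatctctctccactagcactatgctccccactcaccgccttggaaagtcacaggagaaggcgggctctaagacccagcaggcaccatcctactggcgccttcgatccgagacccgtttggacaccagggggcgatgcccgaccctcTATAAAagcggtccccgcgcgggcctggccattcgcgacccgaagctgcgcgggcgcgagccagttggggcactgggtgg
Pparg: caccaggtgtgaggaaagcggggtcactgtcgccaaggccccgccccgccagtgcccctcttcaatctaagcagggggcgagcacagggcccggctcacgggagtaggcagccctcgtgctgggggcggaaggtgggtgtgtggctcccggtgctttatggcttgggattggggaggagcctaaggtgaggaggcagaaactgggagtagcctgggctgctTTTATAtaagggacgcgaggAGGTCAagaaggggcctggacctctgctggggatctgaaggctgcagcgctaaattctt
All motifs were searched on both strands. For nuclear receptors the motif was AGGTCA, and its direct repeat with 1 base between, the element that PPAR and RXR bind together, which always holds the single motif as well. For factors of the C/EBP family it was TTNNGNAAT, and the palindrome TTGCGCAA was added after the sequences were seen. The E-box was searched as CACGTG. The TATA box was searched as TATAAA. The window of Lep holds TTGCGCAA, starting 55 bases before the start, as do 0.183% of 32851 promoters of the same length. TATAAA lies 30 bases before the start of Cebpa and, on the minus strand, 29 bases before this start of Pparg, and 13.6% of all promoters hold it. AGGTCA lies in this Pparg window and in that of another Pparg start, and in 16.3% of all promoters. The windows of Retn, Adipoq, Cfd and the remaining Pparg start hold none of these letters. Among the 9 windows of 7 listed genes, 0 held the direct repeat or CACGTG, against 0.0396% and 7.15% of all promoters. TTNNGNAAT was in 1 of the 9 windows, that of Plin1, and in 11.5% of all promoters. A match is a description of the sequence and not a binding site.

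The libraries differed in more than the genotype. Lama2, the gene of the missing chain, read 82, 31.1 and 140.4 in deficient replicates 1, 2 and 3, against 428.7, 415.6 and 326.2 in wild type replicates (adjusted p = 0.0206). That call was lost when deficient replicate 1 or either of wild type replicates 1 and 2 was left out, with a highest adjusted p of 0.104. Fibre genes such as Acta1 and Ckm were bright in all libraries, with sums over 10 fibre markers of 78319 to 104408 in deficient and 95148 to 102668 in wild type muscle. The Y-linked Eif2s3y read 414.6 and 573.7 in deficient replicates 1 and 2 and 474.1 and 466.8 in wild type replicates 1 and 2, but 9.1 in deficient replicate 3 and 10.7 in wild type replicate 3. Deficient replicate 1 also carried Xist, at 396.3. Skin and hair genes summed to 239 to 387 in deficient muscle, against 2256, 1258 and 297 in wild type replicates 1, 2 and 3. In bulk muscle, fewer adipocytes and less of an RNA per adipocyte cannot be told apart.

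The comparison asks whether adipocyte genes differ between deficient and wild type muscle. None of the 6 measured genes passed the test in either direction. By limma 0 of 6 had an adjusted p under 0.05, where 2.70% of the 13098 genes tested did (1.25% higher and 1.44% lower), and 1 of 6, Lep, had an unadjusted p under 0.05, where 18.9% of all genes did. The median log2 fold change of the 6 was 0.06, beside 0.02 over all genes. A log2 fold change here is the mean of log2(signal + 16) in deficient muscle minus that in wild type muscle, and the added 16 makes changes of dim genes look smaller than they are. Intervals are 95% confidence intervals of single genes, not adjusted for the number of genes.

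**Figure D1:**
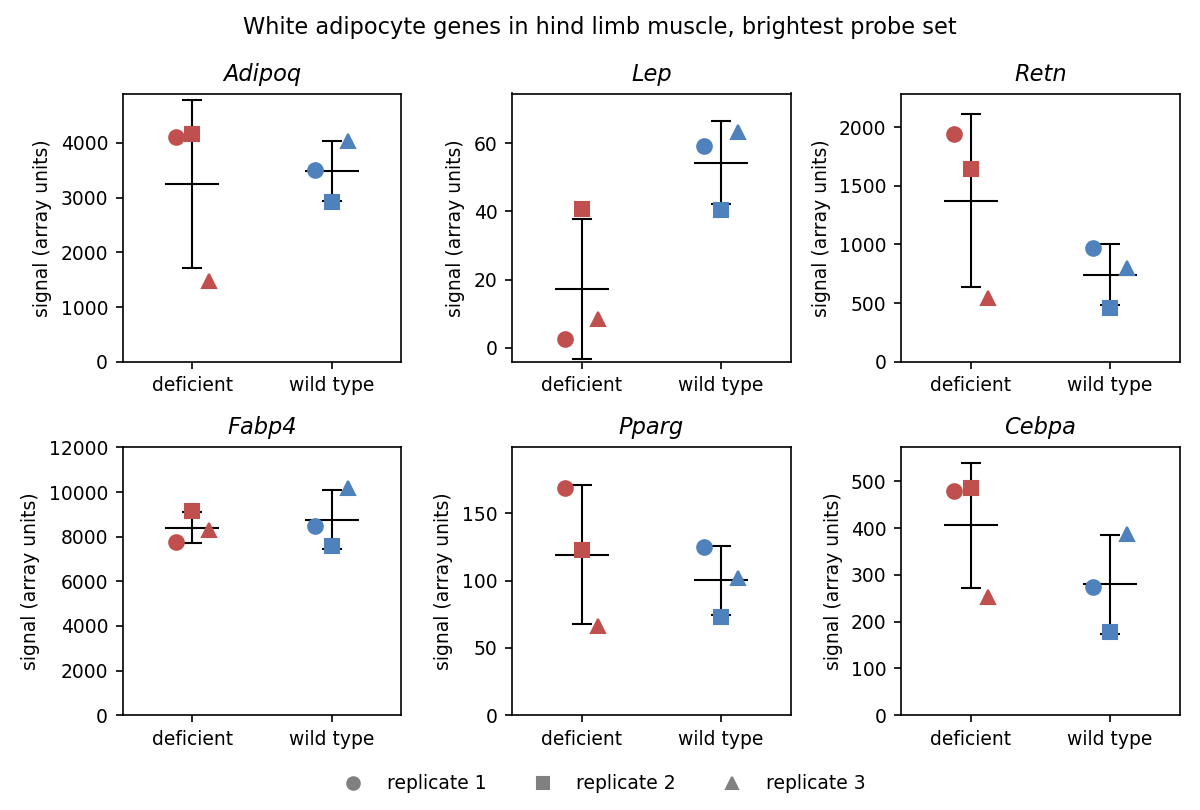
Signal in array units of the brightest probe set of each measured white adipocyte gene, deficient left and wild type right, 1 point per replicate, given by the symbol. Bars are the mean and SD of 3 replicates. The groups overlap for all 6 genes, and deficient replicate 3 is the lowest deficient library for Adipoq, Retn, Pparg and Cebpa.

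Adipoq encodes adiponectin, a hormone made almost wholly by adipocytes. It read 4103, 4155 and 1480.5 in deficient replicates 1, 2 and 3, against 3503, 2925 and 4028 in wild type replicates 1, 2 and 3. Deficient replicates 1 and 2 lay above all wild type libraries and deficient replicate 3 far below them, so the groups overlapped. The means were 3246 ± 1529 in deficient and 3485 ± 552 in wild type muscle (SD, n = 3 each). The log2 fold change was -0.23 (interval -1.02 to 0.55, adjusted p = 0.768), and 0.26 without deficient replicate 3.

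Lep encodes leptin, the hormone by which fat stores signal to the brain. Its signal was 2.6, 40.6 and 8.6 in deficient replicates 1, 2 and 3, against 59.3, 40.5 and 63.2 in wild type replicates 1, 2 and 3. Deficient replicates 1 and 3 lay under every wild type library, and deficient replicate 2 was level with wild type replicate 2. These are dim values, and both low ones lie under the mean signal of 15 that the filter required. The means were 17.3 ± 20.4 in deficient and 54.3 ± 12.1 in wild type muscle (SD, n = 3 each). The log2 fold change of Lep was -1.23 (interval -2.11 to -0.36), with an unadjusted p of 0.0107 that did not hold over all genes (adjusted p = 0.128). The fold change was negative in all 17 alternatives that tested it, from -2.27 at a pseudocount of 1 to -0.56 at a pseudocount of 64, with adjusted p from 0.0555 to 0.569.

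Retn encodes resistin, a hormone of white adipocytes in the mouse. It measured 1937, 1645.5 and 541 in deficient replicates 1, 2 and 3, against 970.3, 462.8 and 796.4 in wild type replicates 1, 2 and 3. Again deficient replicates 1 and 2 were above all wild type libraries, while deficient replicate 3 lay among them. The means were 1374.5 ± 736 in deficient and 743 ± 258 in wild type muscle (SD, n = 3 each), a log2 fold change of 0.75 (interval -0.25 to 1.74, adjusted p = 0.401). Without deficient replicate 3, Retn was called higher, with a log2 fold change of 1.31 (limma adjusted p = 0.0301), and it was not called in the other 17 alternatives. The fit without deficient replicate 3 called 390 of 13210 genes higher. The log2 fold change of Retn was 0.41 without deficient replicate 1 and 0.44 without wild type replicate 2.

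Fabp4 encodes a fatty acid carrier of adipocytes that capillary endothelium and macrophages also make. Its brightest probe set read 7765, 9158 and 8280.3 in deficient replicates 1, 2 and 3, against 8485, 7599.6 and 10196 in wild type replicates 1, 2 and 3. The ranges overlapped almost wholly, and the means were 8401 ± 705 in deficient and 8760.3 ± 1320 in wild type muscle (SD, n = 3 each). The interval was the narrowest of the 6 genes (log2 fold change -0.05, interval -0.36 to 0.26, adjusted p = 0.878). The other 3 probe sets of Fabp4 overlapped between the groups as well. In a fit across 27006 probe sets, of which 1.43% were called, their log2 fold changes were 0.05, 0.06 and 0.59 with adjusted p of 0.942, 0.944 and 0.378. The dimmest, with 129.3, 116.7 and 178 in deficient and 47.8, 110.7 and 120.7 in wild type libraries, differed most, and averaging the probe sets turned the sign of the gene to 0.16. Macrophage markers summed to 13328, 9382 and 4830 in deficient replicates 1, 2 and 3, against 4253, 3314 and 2931 in wild type replicates 1, 2 and 3. Of 12 macrophage markers 3 rose, where 1.25% of all genes did, and 12 had a positive fold change, as did 6890 of the 13098 genes tested. Among those that rose, Trem2 passed the filter only through its deficient values. Of 13 endothelial markers 0 passed by limma, and 2 had an unadjusted p under 0.05 (18.9% of all genes). A negative fold change was found for 11 of the 13, and for 47.4% of all genes. Endothelial markers summed to 2552 to 3433 in deficient and 2995 to 4111 in wild type muscle. The part of these cells in the Fabp4 signal was not tested.

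Pparg encodes the nuclear receptor that drives adipocyte formation. It read 169.1, 122.7 and 66.5 in deficient replicates 1, 2 and 3, against 125, 73.3 and 102.2 in wild type replicates 1, 2 and 3. The means were 119 ± 51.4 in deficient and 100.2 ± 25.9 in wild type muscle (SD, n = 3 each). The highest and the lowest library were both deficient (log2 fold change 0.17, interval -0.52 to 0.85, adjusted p = 0.815), and the sign turned without deficient replicate 1 (-0.09) or wild type replicate 2 (-0.01). Cebpa, which encodes its partner factor, read 478.3, 486.3 and 251.9 in deficient replicates 1, 2 and 3, against 273.8, 176.8 and 388 in wild type replicates 1, 2 and 3. As for Adipoq and Retn, deficient replicates 1 and 2 were above every wild type library and deficient replicate 3 was not. The means were 405.5 ± 133 in deficient and 279.5 ± 106 in wild type muscle (SD, n = 3 each). The log2 fold change of Cebpa was 0.52 (interval -0.20 to 1.24, adjusted p = 0.419), 0.82 without deficient replicate 3, and 0.78 when wild type replicate 3 was left out, 0.24 when wild type replicate 2 was, and 0.00 against wild type replicate 3 alone.

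**Figure D2:**
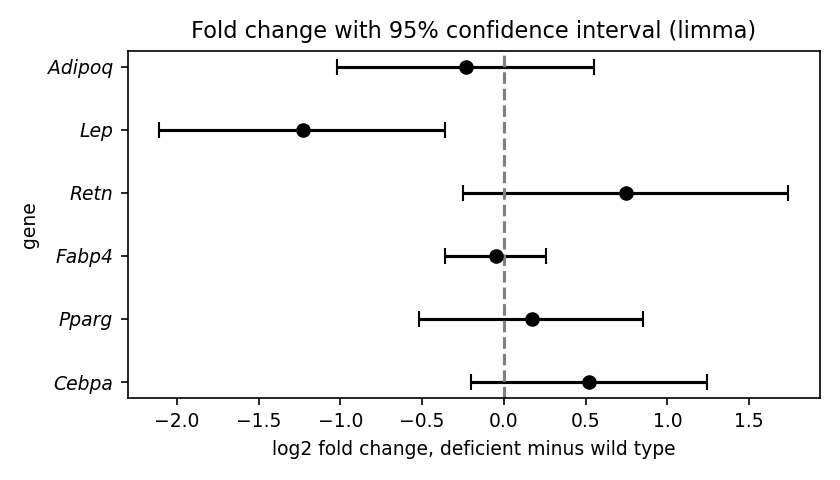
Log2 fold change, deficient minus wild type, of the 6 measured genes, with the 95% confidence interval from limma (n = 3 replicates each, not adjusted for the number of genes). The interval of Lep alone leaves out 0, at -2.11 to -0.36, and its adjusted p was 0.128.

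Libraries of the same group differed widely, and not in the same way for all genes. Wild type replicate 2 was the lowest wild type library for all 6 genes, and deficient replicate 3 the lowest deficient library for 4 of them. Relative to each gene's own mean over the arrays on the log2 scale, deficient replicate 3 stood at -1.10 for Adipoq, -0.76 for Retn, -0.55 for Pparg and -0.34 for Cebpa, but at -0.04 for Fabp4. Deficient replicate 1 stood at 1.05 for Retn and 0.61 for Pparg, but at -1.29 for Lep. Over all arrays Lep and Fabp4 had Pearson correlations with Adipoq of 0.38 and 0.32, against 0.6 to 0.78 for Retn, Pparg and Cebpa. The departures of Lep and Fabp4 from Adipoq lay in deficient libraries. Among wild type libraries Lep, Fabp4 and Cebpa kept the order of Adipoq, while Retn and Pparg were highest in replicate 1. Both low values of Lep are dim.

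**Figure D3:**
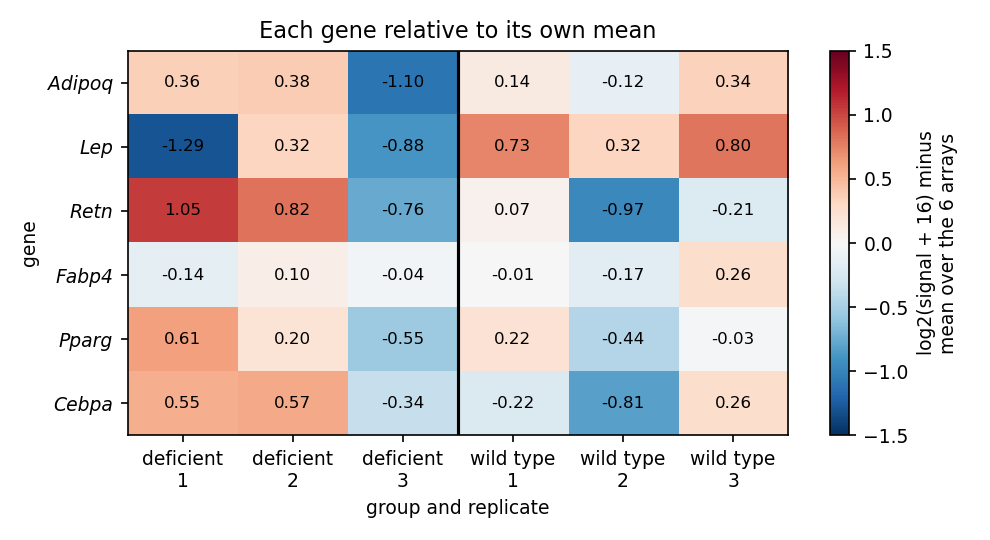
Log2(signal + 16) of each gene minus its mean over the 6 arrays, deficient replicates left and wild type replicates right. Lep in deficient replicate 1 (-1.29) departs from Retn (1.05) and Pparg (0.61) in the same library, and Fabp4 varies least, between -0.17 and 0.26.

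Each gene was also read against Adipoq on the same array, as a description of how the groups differ relative to Adipoq. The 5 comparisons share the Adipoq values, among them the low 1480.5 in deficient replicate 3, so they are not independent. The share of all genes whose groups do not overlap when read this way was not determined. With 3 against 3 libraries the exact permutation test cannot go below p = 0.1, so no difference could pass. Lep minus Adipoq differed by -1.0 on the log2 scale, deficient minus wild type, and the groups did not overlap (exact two-sided permutation p = 0.1, 0.167 adjusted over 5 comparisons). At a pseudocount of 64 that difference was -0.34 and the groups overlapped. For Retn minus Adipoq the difference was 0.98 and for Cebpa minus Adipoq 0.75, both with groups that did not overlap (exact permutation p = 0.1, 0.167 adjusted). For Pparg minus Adipoq it was 0.40 (exact permutation p = 0.2) and for Fabp4 minus Adipoq 0.18 (exact permutation p = 1.0), both with overlapping groups. Without deficient replicate 3 the difference for Fabp4 was -0.30, and without deficient replicate 1 that for Lep was -0.42.

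The Y-linked transcripts set replicate 3 of each group apart from the other replicates, and the signs of 5 of the 6 differences turned between these sets of libraries. Among libraries with Y-linked transcripts, 2 against 2, deficient minus wild type was 0.37 for Adipoq, 1.39 for Retn, 0.51 for Pparg and 1.08 for Cebpa on the log2 scale. Between the libraries without them, 1 against 1, it was -1.43 for Adipoq, -0.54 for Retn, -0.52 for Pparg and -0.59 for Cebpa. For Fabp4 the difference was 0.07 with Y-linked transcripts and -0.30 without them. Lep was lower in both, by differences of -1.01 and -1.69. How many of all genes turned sign between these sets was not counted. In an interaction test across all genes, added after deficient replicate 3 had been seen to stand apart, 0 of the 6 genes passed, where 0.0840% of genes did. An unadjusted p under 0.05 was found for 3 of the 6 genes and for 1067 of all 13098 genes. Because deficient replicate 3 prompted the test, these p values are not independent of that observation. Its estimate of the spread came from the other 4 libraries alone. Deficient replicate 1, in the set with Y-linked transcripts, also carried Xist, at 396.3. In that set Xist read 16.1 in deficient replicate 2 and 1.4 and 19.1 in wild type replicates 1 and 2. With 1 library a side without Y-linked transcripts, sex and replicate cannot be told apart.

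**Figure D4:**
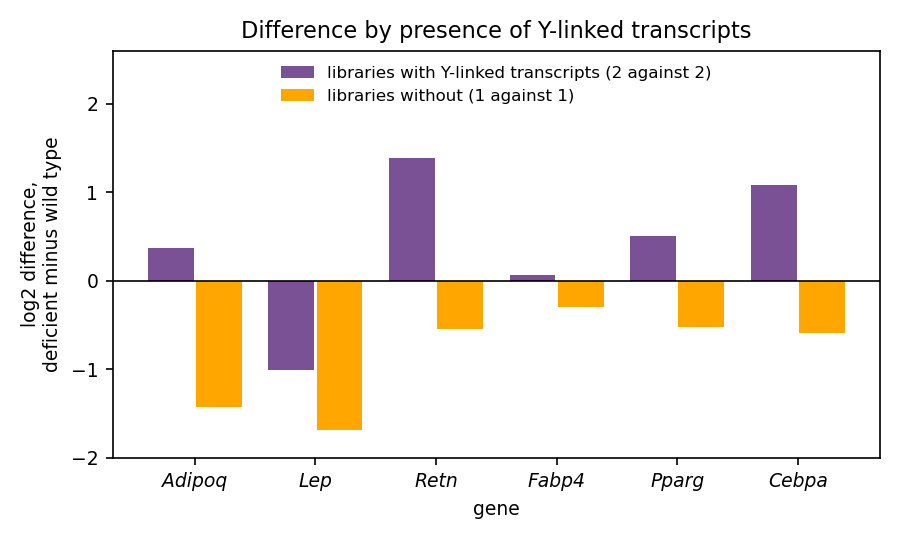
Difference in log2(signal + 16), deficient minus wild type, for libraries with Y-linked transcripts (purple, 2 against 2) and without them (orange, 1 against 1). Adipoq, Retn, Fabp4, Pparg and Cebpa have opposite signs in the 2 sets, and Lep is negative in both, at -1.01 and -1.69. Deficient replicate 1, in the purple set, also carried Xist.

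Other genes of the adipocyte showed few differences. Of 20 genes of lipid droplets, lipolysis and triglyceride storage, 0 passed by limma. An unadjusted p under 0.05 was found for 4 (18.9% of all genes), and the median log2 fold change was -0.18. Agpat2, an acyltransferase of triglyceride synthesis, read 531.5, 441.1 and 117.2 in deficient and 1176, 549.7 and 1237 in wild type replicates 1, 2 and 3. All deficient values lay below the wild type ones (log2 fold change -1.55, adjusted p = 0.134). The groups did not overlap either for Pck1, the enzyme that starts glyceroneogenesis (-0.95, adjusted p = 0.143), Aqp7, the glycerol channel of adipocytes (-0.61, adjusted p = 0.162), and Dgat1, which completes triglyceride synthesis (0.80, adjusted p = 0.108). Groups of all genes tested did not overlap in 24.7%, against these 4 of 20. With a block for the libraries that carry Y-linked transcripts, 602 of the 13098 genes tested were called lower. Among them were 2 of these 20, Pck1 (adjusted p = 0.0141) and G0s2, an inhibitor of lipolysis (adjusted p = 0.0343).

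Of 19 further adipocyte markers, 0 passed by limma and 5 had an unadjusted p under 0.05 (18.9% of all genes), with a median of -0.14. Trarg1, which serves glucose transporter trafficking, read 21.8, 58.6 and 12.5 in deficient and 118.3, 58.7 and 126.6 in wild type replicates 1, 2 and 3 (log2 fold change -1.38, adjusted p = 0.0876). Like Lep, it was low in deficient replicates 1 and 3 and level between the replicates numbered 2, where the groups just missed each other. With the block for Y-linked transcripts it was called lower (adjusted p = 0.0444) and Agt, the angiotensinogen gene, higher (adjusted p = 0.0384). That fit called 602 of the 13098 genes tested lower and 543 higher. Cav1, a coat protein of caveolae in adipocytes and endothelium, had means of 2177 ± 76.3 in deficient and 2989 ± 278 in wild type muscle (SD, n = 3 each; adjusted p = 0.119). Agt averaged 155 ± 17.2 in deficient and 86.1 ± 14.2 in wild type muscle (adjusted p = 0.0762), and Retnla, a resistin-like gene, 265 ± 164.5 in deficient and 538 ± 201 in wild type muscle (adjusted p = 0.186). Of 5 receptor genes for adiponectin, leptin and insulin, 0 passed by limma and 2 had an unadjusted p under 0.05 (18.9% of all genes). They were Adipor1, an adiponectin receptor (-0.50, adjusted p = 0.154), and Cdh13, which binds adiponectin (0.47, adjusted p = 0.249). Lepr (0.32, adjusted p = 0.476) and Insr (0.39, adjusted p = 0.502) overlapped between the groups. Other probe sets that passed the filter did not all follow the brightest. They stood at -0.01 and -0.56 for Adipor1, 0.11 and -0.45 for Cdh13, -0.27 and 0.15 for Lepr and -0.12 for Insr.

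Regulators of adipogenesis and genes of preadipocytes held the 2 genes that rose, of 17 tested, where 1.25% of all genes were higher, and 0 fell. Dlk1, a membrane protein of preadipocytes that mature adipocytes shut off and that fetal and regenerating muscle also makes, rose. It read 327.2, 280.2 and 459.4 in deficient replicates 1, 2 and 3, against 38.5, 54.7 and 25.5 in wild type replicates 1, 2 and 3. Every deficient value was above every wild type value (log2 fold change 2.75, SE 0.258, adjusted p = 0.0015), with adjusted p between 2.37e-04 and 0.0385 in all alternatives. Both of its probe sets moved that way, the other by 0.89. Klf5, a factor that acts early in adipocyte formation and is found in many other cells, rose to 205.4, 181.7 and 195 in deficient replicates, against 83.6, 77.7 and 72.4 in wild type replicates 1, 2 and 3 (log2 fold change 1.16, adjusted p = 0.0133). Its call was lost when deficient replicate 2 or either of wild type replicates 1 and 2 was left out, with a highest adjusted p of 0.0631, and with the mean over probe sets (0.74, adjusted p = 0.0756). Pdgfrb, a receptor of perivascular progenitors, averaged 674 ± 226 in deficient and 355 ± 24.2 in wild type muscle (adjusted p = 0.119). It was called higher with the replicate number as a block (adjusted p = 0.0368), with the block for Y-linked transcripts (adjusted p = 0.0441) and without deficient replicate 1 (1.14, adjusted p = 0.0349). The 2 blocks called 420 and 543 of 13098 genes higher, and the fit without deficient replicate 1 called 72 of 13111. Zfp467, a zinc finger regulator, averaged 39.7 ± 7.19 in deficient and 66.3 ± 12.1 in wild type muscle (adjusted p = 0.197). The median of the 17 was 0.32. Gata3, Wnt10b and Ncor1 were not tested.

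**Figure D5:**
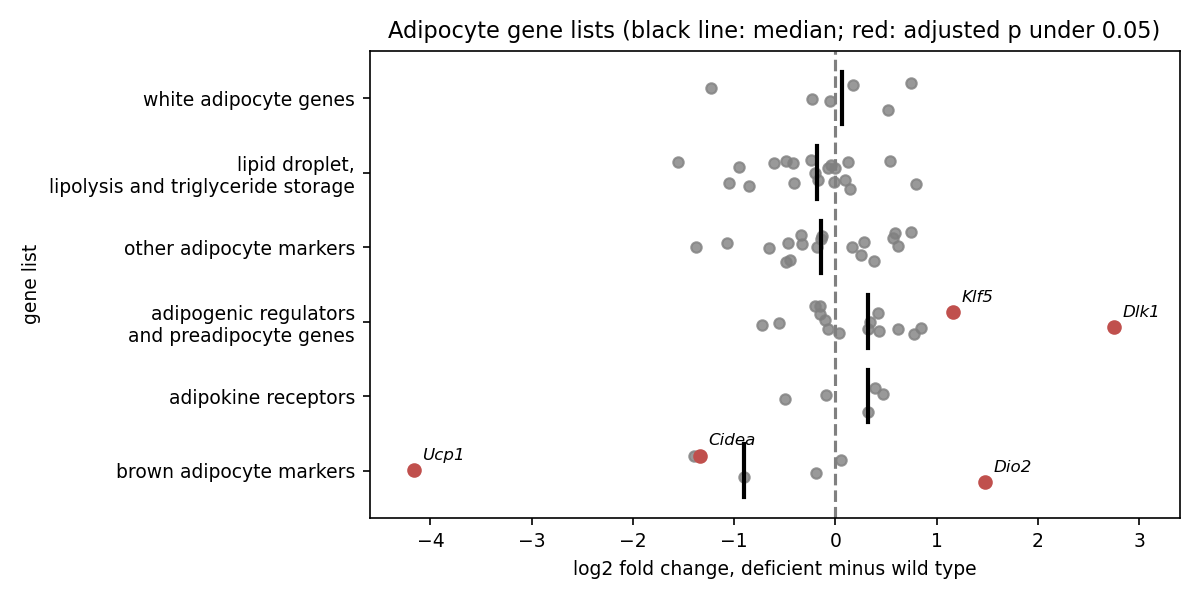
Log2 fold change, deficient minus wild type, of each tested gene in 6 adipocyte gene lists, 1 point per gene, with the list's median as a black line and genes at an adjusted p under 0.05 in red. Red points are absent from the white adipocyte, lipid storage, other marker and receptor lists, and the 2 in the regulator list are Dlk1 (2.75) and Klf5 (1.16).

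Of 7 brown adipocyte markers tested, 2 fell, where 1.44% of all genes did, and 1 was called higher, where 1.25% were. The higher one, Dio2, lost its call in 11 of 18 alternatives. Ucp1, the uncoupling protein of brown fat, fell and read 43.8, 12.7 and 43.7 in deficient and 1033, 356.7 and 1481 in wild type replicates 1, 2 and 3 (adjusted p = 0.00441), and Cidea, a lipid droplet protein of brown fat, fell too and averaged 296 ± 39.5 in deficient and 792 ± 228.5 in wild type muscle (adjusted p = 0.021). Without wild type replicates 1 and 2, the wild type libraries with the higher skin and hair signal, 0 white adipocyte genes were called and Lep had a log2 fold change of -1.42, from 1 wild type library alone. In the same fit Ucp1 was called lower (-5.00, adjusted p = 0.0152) and Cidea was not called (-1.75, adjusted p = 0.135). The part of skin, and of fat beneath it, in these signals was not tested.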

How the data were processed

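RNA of hind limb muscle was read on 1 Affymetrix array per biological replicate, from biotinylated cRNA, per the labels' protocols. Each deposited value is the intensity of a probe set on a linear scale. The sources used here do not say how the authors computed it. The arrays share a trimmed mean near 100 signal units, so these values had already been scaled to a common level. Groups and replicate numbers came from the sample titles. Of 45101 probe sets, 34945 had 1 gene symbol, 932 several and 9160 none, and 34741 matched RefSeq genes of GRCm38.p6 by Entrez identifier. The files hold no counts, so the number of arrays limits the precision, and no detection calls were used.

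The scale of all tests is log2(signal + 16), on which array medians differed by at most 0.226, and no further normalization was applied. Probe sets with a mean under the 40th percentile, which is a signal of 15, did not enter the test, and the brightest remaining probe set stood for a gene. The test between groups was limma's (version 3.58.1, R 4.3.3, lmFit and eBayes, two-sided, with a trend of the variance on intensity and without a block), and calling required a Benjamini-Hochberg adjusted p below 0.05 across all 13098 genes. Every adjusted p in the text is limma's unless named otherwise. Permutation tests used scipy 1.17.1. The gene test was tested on simulated data. The genes and lists were chosen with earlier results of these data known. Named genes were Lama2, the adipocyte genes, the 4 of each other list with the smallest p, the 2 brightest skin and hair genes and the 12 genes most like Adipoq over the arrays, and others were chosen after their values were seen. Alternatives were other scalings, pseudocounts, filters, uses of several probe sets, priors and blocks, and leaving out libraries. The sample titles name no pairing, and the main test did not take the replicate numbers as pairs. Deviations from the group means correlated at 0.146, 0.068 and 0.298 between same-numbered replicates, and at -0.292 to 0.205 between the others. The highest value, 0.298, was between the replicates numbered 3. With the replicate number as a block 855 genes were called. Whether same-numbered replicates share a batch was not tested.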

Additional observations from a re-analysis of the deposited data

How the results depend on the processing

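The count of all genes called was 353, and 216 with no filter, 159 without the intensity trend, 855 with the replicate block, 1145 with the Y-linked transcript block, 20 without wild type replicates 1 and 2, and 64 to 665 with 1 library left out. The white adipocyte genes called numbered 0, and 0 to 1 with 1 library left out. Among lipid storage genes 1 was called with the replicate block and 2 with the Y-linked block. Among other adipocyte markers 2 were called with the Y-linked block and 0 to 1 with 1 library left out. Of the regulators 2 were called, 3 with the replicate block, 3 with the Y-linked block, 1 with the mean over probe sets, 1 without wild type replicates 1 and 2, and 1 to 3 with 1 library left out. Signs turned for Adipoq (-0.48 to 0.26 with 1 library left out), Pparg (-0.094 to 0.49) and Fabp4 (-0.15 to 0.062, 0.049 under quantile normalization and 0.16 with the mean over probe sets). Fabp4 minus Adipoq ran from -0.30 to 0.48 with 1 library left out. The cause of these changes was not tested. Lep could not be given at the 60th percentile filter, which left it out. With the replicate block 0 white adipocyte genes were called and the lipid storage gene it added was Pck1 (adjusted p = 0.0254). All these counts rest on 3 arrays a group, and the 2 lowest Lep values, 2.6 and 8.6, are in the dim range where order is uncertain.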

Other observations

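Markers of other cells of muscle were read beside the adipocyte genes. Of 9 fibro-adipogenic progenitor markers, 0 passed by limma and 3 had an unadjusted p under 0.05 (18.9% of all genes). A positive fold change was found for 7 of the 9, and for 6890 of the 13098 genes tested. Pdgfra, the receptor that defines these progenitors, averaged 755 ± 170.0 in deficient and 484 ± 16.5 in wild type muscle (SD, n = 3 each; adjusted p = 0.144). The groups did not overlap in this brightest probe set, as in 24.7% of all genes. Other probe sets of Pdgfra had log2 fold changes of -0.40 and 0.61. Lum, a matrix proteoglycan gene, had a log2 fold change of 0.53 (adjusted p = 0.2), Dpp4 -0.77 (adjusted p = 0.182) and Thy1 -0.40 (adjusted p = 0.482). Other probe sets of Dpp4 stood at 0.29, -0.83 and -0.31. Of the endothelial genes, Gpihbp1, which holds lipoprotein lipase on capillaries, averaged 355 ± 54.9 in deficient and 516 ± 22.8 in wild type muscle (adjusted p = 0.15), and Emcn, an endothelial sialomucin gene, had a log2 fold change of -0.74 (adjusted p = 0.141), both with no overlap of the groups. The receptor genes Flt1 (-0.44, adjusted p = 0.361) and Tek (-0.32, adjusted p = 0.574) overlapped between the groups. The macrophage genes Mpeg1 (2.78, adjusted p = 0.00233) and Lgals3 (2.74, adjusted p = 0.00594) rose, as did Trem2 (2.11, adjusted p = 0.0269), whose call was lost without 5 of the 6 libraries, deficient replicate 3 being the exception. Trem2 read 116, 74.8 and 25.7 in deficient and 2.7, 2.1 and 2.5 in wild type replicates 1, 2 and 3. The wild type values lie under 15, so only the deficient ones carried Trem2 past the filter. Its log2 fold change was 4.175 at a pseudocount of 1 and 0.978 at 64. Without wild type replicates 1 and 2 the calls of Mpeg1 (adjusted p = 0.0942) and Lgals3 (adjusted p = 0.108) were lost. Cd14, a receptor for lipopolysaccharide, did not pass (0.89, adjusted p = 0.103). Among brown adipocyte markers Dio2, a deiodinase that other cells also make, was called higher (1.48, adjusted p = 0.0452), a call lost without 5 of the 6 libraries, again with deficient replicate 3 as the exception. The call was also lost with median centring (adjusted p = 0.0772), quantile normalization (0.0639), no filter (0.0783), no intensity trend (0.0744) and the mean over its 3 probe sets (0.58, adjusted p = 0.248), of which 2 had a positive fold change. Otop1 (-1.40, adjusted p = 0.0724) did not pass. The call of Cidea was lost without deficient replicate 1 or 2 or wild type replicate 1 or 3 (highest adjusted p 0.107).

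Most skin and hair genes were brightest in wild type replicates 1 and 2, with Lor, a gene of the cornified layer, as an exception at 82.2, 67.1 and 53.4 in deficient and 81.4, 69.8 and 50.3 in wild type replicates 1, 2 and 3. Krt25, a hair follicle keratin, read 11.8, 20.2 and 3.4 in deficient and 653.3, 244.5 and 17.1 in wild type replicates 1, 2 and 3, and Krt10, a keratin of the epidermis, 202.1, 111.8 and 91.2 in deficient and 260.2, 284.6 and 136.7 in wild type replicates 1, 2 and 3. Of 9 skin and hair genes tested 1 fell, the hair follicle gene Tchh (-2.95, adjusted p = 0.0486), where 1.44% of all genes did. Tchh read 1.9, 0.2 and 3.9 in deficient and 342.9, 178.8 and 22.3 in wild type replicates 1, 2 and 3. The deficient values lie under 15, so only the wild type ones carried Tchh past the filter. Its call was lost in 13 of 17 alternatives. Among these were median centring (adjusted p = 0.0614), quantile normalization (0.0608) and the fits without 5 of the 6 libraries. The hair keratin genes Krt27 (-2.60, adjusted p = 0.0876) and Krt71 (-1.88, adjusted p = 0.168) did not pass. Krt27 read 1.7, 1.4 and 1.5 in deficient replicates 1, 2 and 3, so it too passed the filter only through wild type values. Of 10 muscle fibre genes 0 passed by limma and 3 had an unadjusted p under 0.05 (18.9% of all genes). These were Myh7, the slow myosin heavy chain (1.19, adjusted p = 0.139), the myoglobin gene Mb (-0.34, adjusted p = 0.175) and the fast troponin gene Tnnt3 (-0.32, adjusted p = 0.194). The titin gene Ttn followed (0.33, adjusted p = 0.322), with a positive fold change in 5 of its 6 probe sets. The erythroid genes Alas2 and Slc4a1 were high in replicate 2 of both groups, Slc4a1 at 358.5 in the deficient and 422.4 in the wild type library, and 0 of 2 passed by limma (0 at an unadjusted p under 0.05).

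The 12 genes whose log2 values followed Adipoq most closely over the 6 arrays, out of 13097 ranked, had Pearson correlations of 0.968 to 0.995. They were Nat9, Nr2c2ap, Ngfr, Zfp932, Nicn1, Zfp13, Gstz1, Hmox2, Fads1, Pced1a, Dync2li1 and Rab6a. On the gene lists used here stood 0 of the 12. All 12 had their lowest value in deficient replicate 3, the library that was also lowest for Adipoq. That follows largely from how the 12 were picked, since Adipoq departed most from its mean in that library, at -1.10. Among the other white adipocyte genes the correlation with Adipoq was highest for Pparg, 0.78, at rank 698. These correlations describe 6 arrays and carry no test.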
